A study of Mus musculus with 12 samples.

Results

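The miRNAs described here are mmu-miR-7a, mmu-miR-7b, mmu-miR-375, mmu-miR-96, mmu-miR-182 and mmu-miR-183, taken by their names on the array as miRNAs known from endocrine, epithelial and sensory cells. They are 6 of the 650 miRNAs on the array, 611 of which are murine. They were chosen by name, with their scaled signals and detection flags in the 6 groups already known from these arrays. Their levels and detection are therefore given as a description, and the adjusted p-values below are outputs of a fit over all tested miRNAs, not independent support for these 6. Mature miRNAs were measured on 1-colour Agilent arrays in mouse embryonic fibroblasts of C57BL/6 background, that is, connective tissue cells grown from embryos. The groups were ATF6b knockout (KO) cells untreated, KO cells given 2 ug/mL tunicamycin for 12 h, KO cells given it for 24 h, and wild-type (WT) cells in the same 3 conditions. Each group has 2 arrays, from separate experiments according to the design text. ATF6b is a membrane-bound transcription factor of the unfolded protein response, and tunicamycin triggers that response by blocking N-linked glycosylation. The design text asks which miRNAs respond to 12 h of tunicamycin in a way that depends on ATF6b. The labels do not say how many lines or clones stand behind each genotype, so cell line and genotype cannot be told apart.

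A mature miRNA pairs with messages mainly through its seed, bases 2 to 8, and lowers their translation and stability, so miRNAs with the same seed share many predicted targets. miR-7 is abundant in neurons and in pancreatic endocrine cells. miR-375 is the characteristic miRNA of pancreatic islets, where it restrains insulin secretion, and is also found in other secretory and epithelial cells. miR-96, miR-182 and miR-183 form a polycistronic cluster that is prominent in hair cells, photoreceptors and sensory neurons, and seed mutations of miR-96 cause hearing loss in mice and humans. Fibroblasts are not the cells for which these miRNAs are best known.

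The mature sequences show which members could act on the same messages and how closely their array targets resemble each other. They are RefSeq sequences of build GRCm38.p6, found for 5 of the 6 members, written 5′ to 3′ with the seed in capitals.
miR-7a: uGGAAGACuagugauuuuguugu
miR-7b: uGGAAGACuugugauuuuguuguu
miR-96: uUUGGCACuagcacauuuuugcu
miR-182: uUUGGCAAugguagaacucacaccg
miR-183: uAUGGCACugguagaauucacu
miR-7a and miR-7b have the same seed. Counted from 1 at the 5′ end, they differ over 23 bases by A10U alone, and miR-7b is 24 bases long against 23 for miR-7a. The 3 cluster members have different seeds: within the seed, miR-182 differs from miR-96 by C8A and miR-183 differs from miR-96 by U2A. Over the bases compared from the 5′ end, seed included, miR-182 and miR-183 are the closer pair, with 18 of 22 bases identical, against 12 of 23 for miR-96 and miR-182 and 13 of 22 for miR-96 and miR-183. miR-1271-5p has the seed of miR-96 and was not analysed here.

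The genes of these miRNAs lie at few loci. miR-7a has 2 of them, Mir7-1 at chr13:58392841-58392863 on the minus strand, inside the protein-coding gene Hnrnpk, and Mir7-2 at chr7:78888295-78888317 on the plus strand, with no other annotated gene over it. An array signal for miR-7a cannot be assigned to either locus. miR-7b comes from Mir7b at chr17:56243017-56243040 on the plus strand. Mir182 (chr6:30165962-30165986), Mir96 (chr6:30169506-30169528) and Mir183 (chr6:30169711-30169732) all lie on the minus strand inside the long noncoding RNA gene Mirc35hg. The hairpins of the cluster span 3820 bases, with 116 bases between those of Mir96 and Mir183 and 3453 bases between those of Mir182 and Mir96.

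Signal is given here as the summed background-subtracted intensity of a miRNA's probes, in percent of the 75th percentile of the same array over the 93 miRNAs detected on all 12 arrays. Each member is read by 2 probes with 10 spots each, and none of their spots was saturated. Between 114 and 191 miRNAs were detected per array. The scaling percentile was 446, 246, 412 and 208 intensity units on the 4 treated KO arrays, 617, 477, 582 and 257 on the 4 treated WT arrays, and 539 to 623 on the 4 untreated arrays. For the fit, signals under a floor of 1.91% were raised to that floor. One slide carried the untreated arrays and the other the treated ones, so treatment and slide cannot be told apart in any comparison of treated with untreated cells. On each slide, the replicates 1 were scanned in one run and the replicates 2 in another, so KO and WT can be compared within a run. The genotype could not be checked, since no probe reads the ATF6b message.

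Of the fibroblast marker miRNAs, 10 were on the array and 8 or 9 were detected on at least 1 array of every group, among them miR-21, miR-143 and miR-214. The 7 epithelial markers had 0 detected in untreated KO cells and in every WT group, and 4 detected on at least 1 array in KO cells at 12 h and at 24 h. Their summed signal was 259% and 374% on the KO arrays at 12 h and 255% and 315% at 24 h, against at most 1.88% on any other array. Of the 9 neural and neuroendocrine markers, miR-124, miR-9, miR-128, miR-153 and miR-184 were undetected on all 12 arrays. miR-129-3p was detected on at least 1 array of every group, miR-129-5p in every group but KO cells at 12 h, and miR-204 and miR-211 in untreated KO cells only. The list summed to 8.86% to 42.9%, with the highest value in untreated KO cells. Of the 4 muscle markers, miR-206 was detected on at least 1 array of every group, and the list summed to 2.59% to 8.60%. Of the 5 pluripotency markers, miR-290-3p and miR-294 were detected in untreated KO cells and none elsewhere, with sums of 3.05% and 29.2% on the untreated KO arrays and 3.84% to 11.6% on the others. Their part in the results for the members was not tested. The 6 blood markers and the 3 endothelial and liver markers were undetected on all arrays. In bulk RNA, fewer cells of a type and less RNA per cell cannot be told apart.

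miR-7a and miR-96 were present in untreated WT cells, were undetected in untreated KO cells, and were higher after tunicamycin in both genotypes. After scaling, both had their highest mean in KO cells at 12 h; for miR-7a the KO and WT means at 12 h were not called different and had the opposite order before scaling. After scaling, miR-183, near the limit of detection, also had its highest mean in KO cells at 12 h and its lowest in untreated KO cells. Before scaling, its KO and WT means at 12 h had the opposite order. miR-375 was detected only on treated KO arrays, and miR-7b and miR-182 were detected on none.

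**Figure D1:**
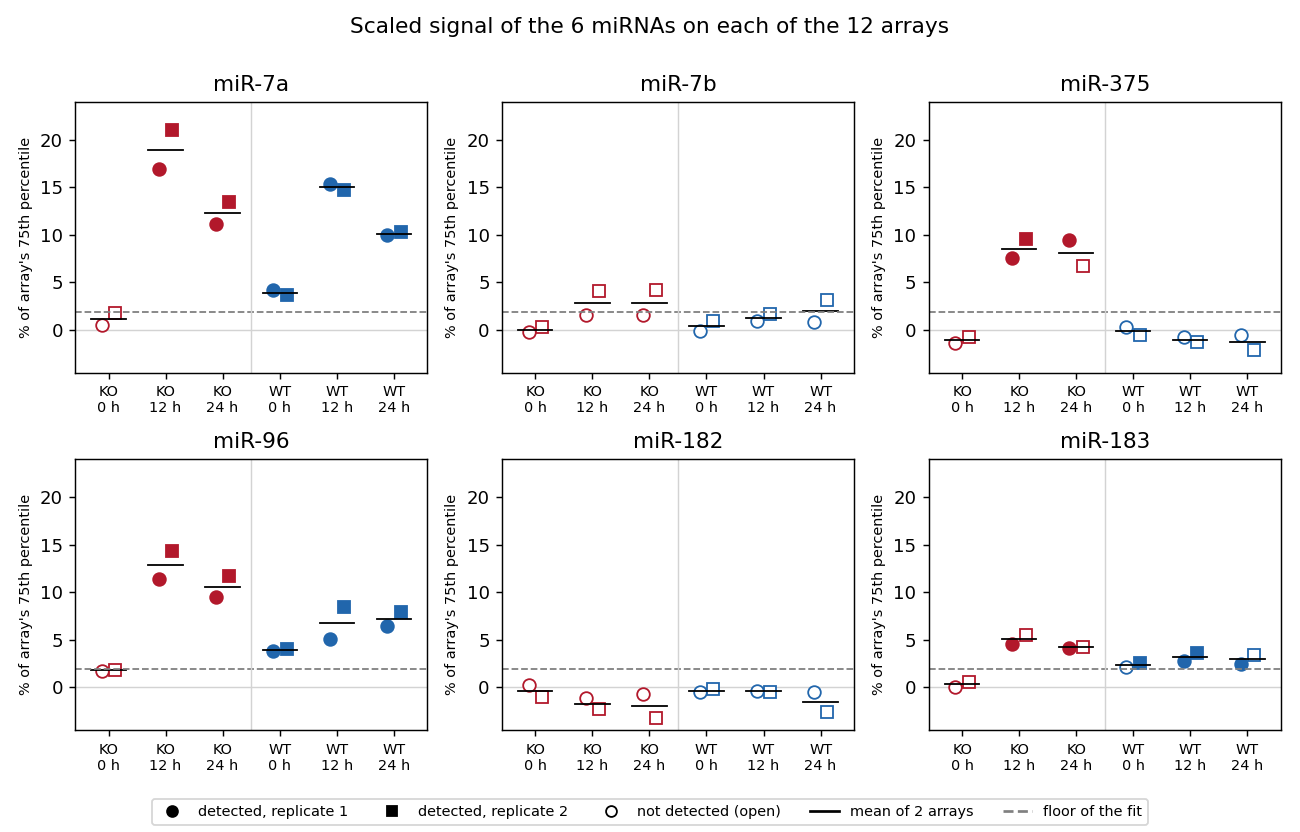
Scaled signal of each of the 6 miRNAs on each of the 12 arrays, in percent of the array's 75th percentile, with KO groups left of WT groups and time running from 0 h (untreated) to 24 h within each. Filled symbols are detected, open symbols not detected, black lines the mean of 2 arrays and the dashed line the floor of 1.91%; miR-7a, miR-96 and miR-183 are lowest in untreated KO cells, and miR-375 is above the floor only in treated KO cells.

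miR-7a was detected on 10 of the 12 arrays. Its scaled signal in KO cells was 0.512% and 1.79% untreated, undetected on both arrays, then 16.9% and 21.0% at 12 h and 11.1% and 13.4% at 24 h. The WT values were 4.21% and 3.61% untreated, 15.3% and 14.7% at 12 h and 9.92% and 10.3% at 24 h. The arrays of the 6 groups did not overlap, and the group means stood in the order KO 12 h, WT 12 h, KO 24 h, WT 24 h, WT untreated, KO untreated. The neighbouring pairs of KO and WT at 12 h and of KO and WT at 24 h were not called different by the fit below.

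In KO cells miR-7a rose by 3.30 ± 0.15 on the log2 scale at 12 h (SE, limma adjusted p = 1.56e-06, n = 2 per group), at least 7.66-fold over the limit set by the untreated arrays. At 24 h it rose by 2.68 ± 0.15 (limma adjusted p = 6.44e-06), at least 4.97-fold. WT cells showed a rise of 1.94 ± 0.15 at 12 h (limma adjusted p = 5.08e-05) and of 1.37 ± 0.15 at 24 h (limma adjusted p = 0.000424). In such a bound the brighter group's mean is divided by a limit averaged over the dim group, which is, per array, the highest of its lowest detected signal, the floor and the miRNA's own signal. Where both arrays of a group sit at the floor they have no spread, so the SE leans on the remaining groups and can be too small.

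By the fit, the genotypes were called different in untreated cells and were not called different after tunicamycin. Untreated, miR-7a fell in KO cells to below the limit of detection, at least 1.59-fold under WT (fitted log2 change -1.03 ± 0.15, limma adjusted p = 0.0053). That call was lost with quantile normalization and with the percentile taken over all miRNAs. After 12 h of tunicamycin it was 0.33 ± 0.15 higher in KO on the log2 scale and after 24 h 0.27 ± 0.15 higher, and neither was called (limma adjusted p = 0.136 and 0.211). Within runs, the KO minus WT difference at 12 h was 0.14 in run 1 and 0.51 in run 2. Before scaling, the intensities at 12 h had the opposite order, with 75.3 and 51.6 in KO cells and 94.3 and 70.3 in WT cells. The sign of this small difference therefore depends on the scaling.

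miR-96 was also detected on 10 arrays. Its scaled signal in KO cells was 1.76% and 1.81% untreated, undetected on both arrays, 11.4% and 14.3% at 12 h, and 9.49% and 11.7% at 24 h. WT cells had 3.83% and 4.004% untreated, 5.10% and 8.49% at 12 h, and 6.49% and 7.94% at 24 h. Treated KO arrays were thus all above treated WT arrays, while the WT arrays of 12 h and 24 h overlapped, and so did the KO arrays. The group means stood in the order KO 12 h, KO 24 h, WT 24 h, WT 12 h, WT untreated, KO untreated.

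In KO cells miR-96 rose by 2.74 ± 0.25 on the log2 scale at 12 h (SE, limma adjusted p = 9.05e-05), at least 5.18-fold, and by 2.46 ± 0.25 at 24 h (limma adjusted p = 0.000188), at least 4.28-fold. In WT cells it rose by 0.75 ± 0.25 at 12 h (limma adjusted p = 0.0477) and by 0.87 ± 0.25 at 24 h (limma adjusted p = 0.0258). The 12 h call in WT was lost when any 1 of 11 arrays was left out. The change was 0.38 without WT 12 h replicate 2, and its adjusted p lay between 0.0542 and 0.254 over those 11. The WT call at 24 h was lost without either untreated WT array or without WT 24 h replicate 2.

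Between genotypes, miR-96 fell in untreated KO cells to below the limit of detection, at least 1.59-fold under WT (fitted log2 change -1.03 ± 0.25, limma adjusted p = 0.036). That call was lost when any 1 of 10 arrays was left out, with an adjusted p of 0.0509 to 0.155, while that of miR-7a was kept. At 12 h it was higher in KO by 0.95 ± 0.25 (limma adjusted p = 0.0192), with 1.15 in run 1 and 0.75 in run 2. That call was lost without WT 12 h replicate 1 and without KO 12 h replicate 2. At 24 h the difference was 0.55 ± 0.25 and was not called (limma adjusted p = 0.132). Unscaled, the intensities at 12 h were 50.6 and 35.1 in KO cells and 31.5 and 40.5 in WT cells, which overlap.

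miR-183, processed from the same cluster, was detected on 6 arrays, and on both arrays of a group only in WT cells at 12 h. In KO cells its scaled signal was 0.0937% and 0.592% untreated, undetected on both arrays, 4.61% and 5.56% at 12 h, and 4.17% and 4.24% at 24 h, where only replicate 1 was detected at each time. WT cells had 2.15% and 2.53% untreated, 2.82% and 3.62% at 12 h, and 2.504% and 3.42% at 24 h. The group means stood in the order KO 12 h, KO 24 h, WT 12 h, WT 24 h, WT untreated, KO untreated, and the 12 h and 24 h arrays of WT overlapped. On replicate 2 of KO 12 h, KO 24 h and WT 24 h, where miR-183 was undetected, the lowest signal of any detected miRNA was 5.55%, 6.63% and 4.39%, higher than on the other 9 arrays.

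In KO cells miR-183 rose by 1.40 ± 0.20 on the log2 scale at 12 h (SE, limma adjusted p = 0.00107) and by 1.14 ± 0.20 at 24 h (limma adjusted p = 0.00359). No fold is given, since at each time 1 of the 2 treated arrays did not detect it either. The 24 h call was lost with the floor raised by 1 on the log2 scale (0.14, limma adjusted p = 0.291), with the brighter probe alone (0.55, limma adjusted p = 0.114), with quantile normalization (0.42, limma adjusted p = 0.428) and with the percentile taken over all miRNAs (0.94, limma adjusted p = 0.224). The raised floor lies close to the KO signals at 24 h of 4.17% and 4.24%, so that setting could show little change. In WT cells the changes of 0.45 ± 0.20 and 0.33 ± 0.20 were not called (limma adjusted p = 0.11 and 0.211). KO against WT at 12 h it was 0.66 ± 0.20 higher (limma adjusted p = 0.0309), with 0.71 in run 1 and 0.62 in run 2. That call was lost without any of KO 12 h replicate 1, KO 12 h replicate 2 and WT 12 h replicate 1. Unscaled, the intensities at 12 h were 20.6 and 13.7 in KO cells and 17.4 and 17.3 in WT cells, which overlap. Their means of 17.1 in KO and 17.3 in WT cells had the opposite order to the scaled means. The untreated difference of -0.29 ± 0.20 and the 24 h difference of 0.52 ± 0.20 were not called (limma adjusted p = 0.495 and 0.0801).

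miR-182, the remaining mature miRNA of the cluster, was undetected on all 12 arrays, with scaled signals from -3.17% to 0.23%. The star strand miR-183* was undetected on all 12 as well. The lowest detected signal of an array lay between 0.0424% and 6.63%, but miRNAs above that signal could also go undetected. On untreated KO replicate 2 the lowest detected signal was 0.0615%, and miR-96 was undetected at 1.81%. A low level of miR-182 could therefore not be seen. Cluster members detected on the same arrays were therefore miR-96 and miR-183 only.

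miR-375 was detected on 3 arrays, all of treated KO cells. Its scaled signal in KO cells was -1.37% and -0.81% untreated, 7.50% and 9.55% at 12 h, and 9.43% and 6.70% at 24 h, the last of these undetected. The WT arrays had 0.24% and -0.52% untreated, -0.78% and -1.32% at 12 h, and -0.51% and -2.11% at 24 h, undetected throughout. All 4 treated KO arrays lay above all other arrays.

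In KO cells miR-375 rose by 2.14 ± 0.18 on the log2 scale at 12 h (SE, limma adjusted p = 5.64e-05), at least 3.44-fold, and by 2.05 ± 0.18 at 24 h (limma adjusted p = 8.96e-05). KO against WT it was at least 3.35-fold higher at 12 h (limma adjusted p = 8.01e-05), and higher by 2.05 ± 0.18 on the log2 scale at 24 h (limma adjusted p = 8.66e-05). No fold is given for 24 h, when 1 of the 2 KO arrays detected it. Unscaled it had 33.5 and 23.5 intensity units in KO cells at 12 h and -4.78 and -6.30 in WT cells, the same order as after scaling. On 8 of 12 arrays it was at the floor, so its SE comes from the 4 treated KO arrays. It entered the fit only through KO cells at 12 h, so these calls are no support by themselves.

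The miRNAs of the epithelial miR-200 family, which restrain the transition to a mesenchymal state, were detected on treated KO arrays too. Of the 5 on the array, miR-141, miR-200b and miR-200c were tested, detected on the 4 treated KO arrays and on no other. miR-200a was detected on 2 arrays, replicate 1 of KO cells at 12 h and at 24 h, and miR-429 on 0. miR-200c reached 144% and 230% in KO cells at 12 h and 156% and 211% at 24 h, against at most -0.55% on every other array. All 3 were called higher in KO cells at 12 h and at 24 h against untreated and against WT, and 0 of 3 were called in the WT responses (limma, 0 at an unadjusted p under 0.05). They entered the fit only through treated KO cells and sat at the floor elsewhere, so these outcomes were set by the filter. Over all tested miRNAs, limma called 21.6% and 25.6% higher in KO cells at 12 h and 24 h against untreated. Against WT it called 29.5% and 27.3% higher, and in the WT responses 14.2% and 13.6%. The part of the miR-200 family in the result for miR-375 was not tested.

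miR-7b shares the seed of miR-7a and was undetected on all 12 arrays. Its scaled signal in KO cells was -0.28% and 0.31% untreated, 1.60% and 4.05% at 12 h, and 1.54% and 4.17% at 24 h. In WT cells it was -0.10% and 0.90% untreated, 0.89% and 1.65% at 12 h, and 0.83% and 3.14% at 24 h. Only 1 of its 240 spots was well above background, against 97 of 240 for miR-7a. How far the probes separate these near-identical sequences was not tested. The star strand miR-7a* was undetected on all 12 arrays.

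Each detected member was read by a brighter and a dimmer probe. miR-7a drew 81.2% to 92.5% of its summed signal from its brighter probe on the arrays that detected it, miR-183 78.3% to 87.6%, miR-375 77.2% to 82.0% and miR-96 59.6% to 73.0%. For each of the 4, both arrays of treated KO cells exceeded both arrays of untreated KO cells on each probe, at 12 h and at 24 h. How many probes of all tested miRNAs did so was not counted, while limma called 21.6% and 25.6% of those miRNAs higher. miR-375 was admitted through KO cells at 12 h, so its rise there is no support by itself. The brighter probe of miR-7a averaged 16.0% in KO cells at 12 h and 1.13% in untreated KO cells, and its dimmer probe 2.95% and 0.0209%. The brighter probe of miR-375 averaged 6.90% in KO cells at 12 h and -0.61% in WT cells at 12 h, and its dimmer probe 1.62% and -0.44%. When only the brighter probe was used, 15 of the 25 calls of members remained.

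**Figure D2:**
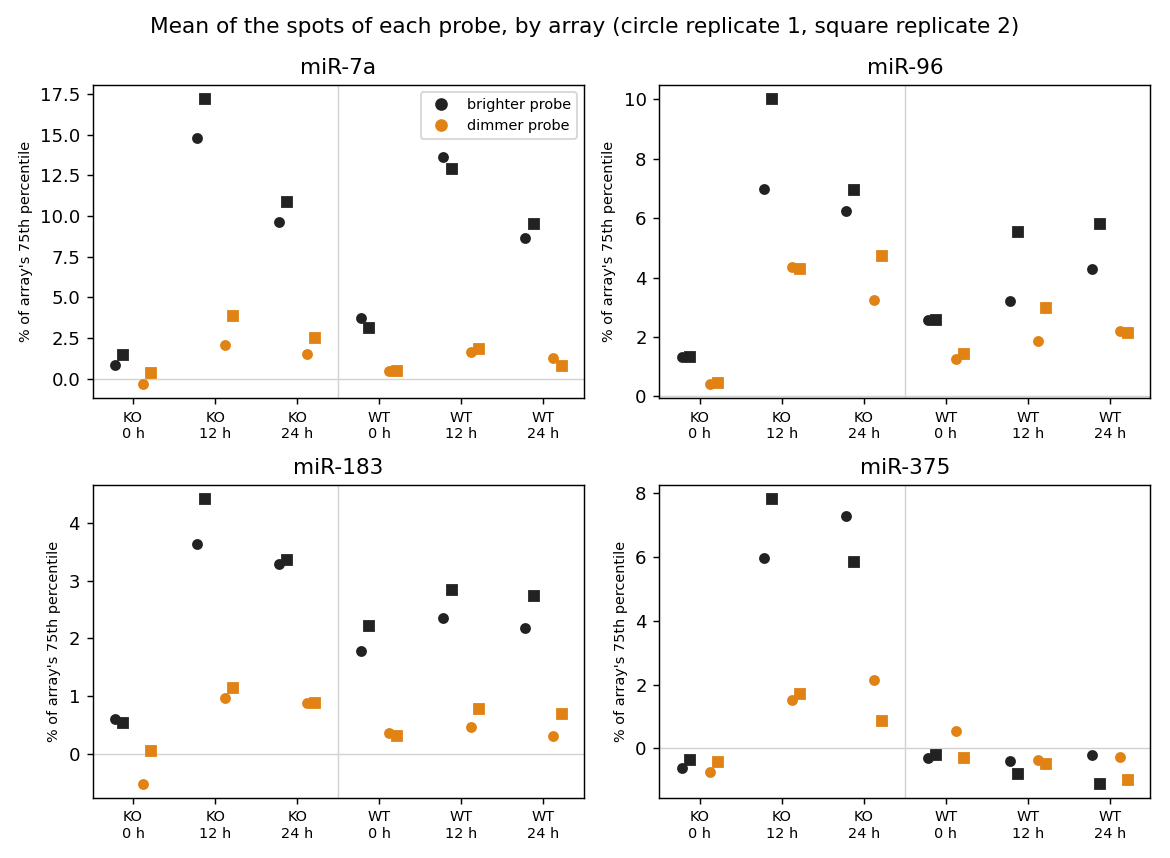
Mean of the spots of each of the 2 probes of miR-7a, miR-96, miR-183 and miR-375 on each array, in percent of the array's 75th percentile, with KO groups left of WT groups. Black is the brighter and orange the dimmer probe, circles are replicate 1 and squares replicate 2; both probes of all 4 miRNAs are higher in treated than in untreated KO cells.

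Set against all tested miRNAs, the members were called higher in KO cells more widely than in WT cells. A miRNA was tested if both arrays of some group detected it, which held for 176 and admitted 4 of the 6 members: miR-7a and miR-96 through several groups, miR-183 through WT cells at 12 h and miR-375 through KO cells at 12 h. A member admitted through the group where it is high had to differ, so the counts that follow are no support by themselves. In KO cells 4 of 4 were called higher at 12 h and 4 of 4 at 24 h, where the fit called 21.6% and 25.6% of all tested miRNAs higher. In WT cells miR-7a and miR-96 were called higher at both times, with 14.2% and 13.6% of all tested miRNAs called higher. The median log2 change of the 4 was 2.44 in KO cells at 12 h and 2.26 at 24 h, against 0.25 and 0.15 over all tested miRNAs. In WT cells it was 0.60 at both times, against -0.05 and -0.03. Quantile normalization moved the median of all tested miRNAs in KO cells at 12 h to -0.05 and still called miR-7a, miR-96 and miR-375 there, while miR-183 had 1.06 and was not called (limma adjusted p = 0.071).

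KO against WT, 2 of 4 members were called lower in untreated cells, where 9.66% of all tested miRNAs were called lower. At 12 h 3 were called higher, where 29.5% of all tested miRNAs were, and at 24 h 1 was, where 27.3% were. The members' medians of -0.66, 0.81 and 0.54 stood beside medians of -0.03, 0.23 and 0.25 over all tested miRNAs. The calls in untreated cells were lost with quantile normalization (-0.72 for miR-7a and -0.71 for miR-96). That setting called 4 in place of 20 of all 176 tested miRNAs in untreated cells, in either direction. They were also lost with the floor raised by 1 on the log2 scale (-0.069 and -0.033). The raised floor lies close to the untreated WT signals of both miRNAs, so that setting could not show the gap. At 12 h, quantile normalization left miR-375 alone called, with 0.47 for miR-96 and 0.38 for miR-183. With the replicate number as a block, 3 members in place of 1 were called at 24 h, and 83 in place of 61 of all 176 tested miRNAs.

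**Figure D3:**
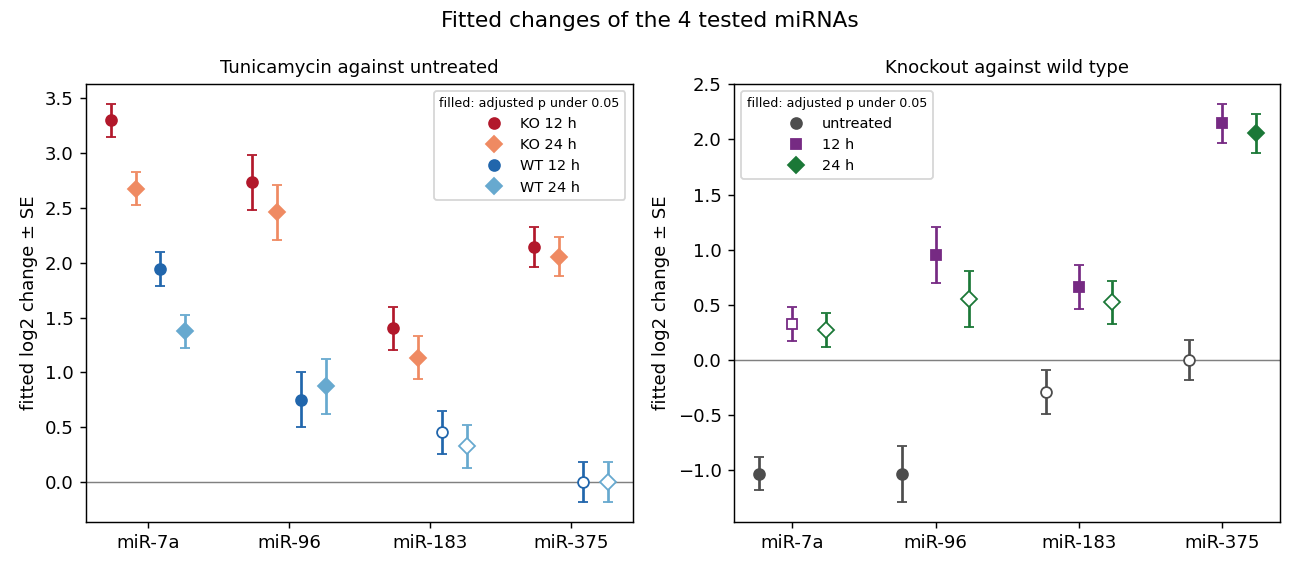
Fitted log2 change ± SE of the 4 tested miRNAs, on the left for tunicamycin against untreated cells in KO and WT and on the right for KO against WT in each condition, 2 arrays per group. Filled symbols have an adjusted p under 0.05; KO responses exceed WT responses for all 4, and the KO minus WT difference of miR-7a and miR-96 is -1.03 untreated and above 0 at 12 h and 24 h.

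The difference of the responses themselves was the test closest to the question of the design text. At 12 h all 4 members had a larger response in KO than in WT cells, where 22.2% of all tested miRNAs were called in that direction. The KO minus WT difference of log2 changes was 2.14 ± 0.25 for miR-375 (SE, limma adjusted p = 0.00114) and 1.99 ± 0.35 for miR-96 (limma adjusted p = 0.00797). It was 1.36 ± 0.22 for miR-7a (limma adjusted p = 0.00548) and 0.95 ± 0.28 for miR-183 (limma adjusted p = 0.0426). At 24 h miR-375, miR-96 and miR-7a were called with 2.05, 1.59 and 1.30, where 19.9% of all tested miRNAs were called higher. miR-183 had 0.81 ± 0.28 and was not called (limma adjusted p = 0.0815). The median over all tested miRNAs was itself above 0, at 0.37 for 12 h and 0.44 for 24 h. For miR-7a and miR-96 the low untreated level in KO cells enters this difference: of the 1.36 for miR-7a at 12 h, 1.03 is the untreated gap between the genotypes.

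The call of miR-183 at 12 h was lost when any 1 of 10 arrays was left out (limma adjusted p of 0.0504 to 0.139). The 24 h call of miR-96 was lost without either untreated KO array, without either WT 24 h array and without untreated WT replicate 1. With quantile normalization miR-375 alone kept its call at either time. The 12 h differences were then 1.18 for miR-96, 0.78 for miR-7a and 0.75 for miR-183. Over all tested miRNAs this setting called 11 at 12 h and 7 at 24 h, in place of 43 and 36. With the floor raised by 1 on the log2 scale, miR-7a and miR-96 were not called, with 0.40 and 0.99 at 12 h (limma adjusted p = 0.144 and 0.0841) and 0.34 and 0.59 at 24 h (limma adjusted p = 0.245 and 0.318). That floor lies close to the untreated WT signals of both, so it takes most of the untreated gap out of these differences. With the brighter probe alone, miR-375 again was the one call at either time. miR-375 was admitted through KO cells at 12 h and sat at the floor on all WT arrays. Its kept calls are therefore no support by themselves. With the percentile taken over all miRNAs no member was called by limma, and miR-375 at 12 h had 1.96 (limma adjusted p = 0.0655). These differences share their untreated arrays between the 2 times, so the 12 h and 24 h values are not independent of each other.

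From 12 h to 24 h no member was called in either genotype by limma, with 1 of 4 at an unadjusted p under 0.05 in each, and 1.14% of all tested miRNAs called in WT and 0.568% in KO cells. That member was miR-7a, lower at 24 h than at 12 h by a log2 change of -0.62 ± 0.15 in KO cells (limma adjusted p = 0.221) and -0.57 ± 0.15 in WT cells (limma adjusted p = 0.243). It was lower on both arrays of each genotype. The medians over all tested miRNAs were -0.13 in both genotypes.

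The software's own summary gave other values for these dim miRNAs. Where a member was detected, the total gene signal exceeded the software's probe totals, added up, by up to 123-fold for miR-7a, 17.3-fold for miR-96, 19.6-fold for miR-183 and 4.49-fold for miR-375. Both agreed within 1% on 2 of 10 arrays for miR-7a, 5 of 10 for miR-96, 0 of 6 for miR-183 and 1 of 3 for miR-375. The authors' deposited table holds the log2 of that total: for miR-7a it gives 6.03 and 10.72 in WT cells at 12 h and 10.88 and 10.47 in untreated WT cells. The 2 arrays of the 12 h group thus lie far apart in the authors' deposited table, while their summed probe signals were 15.3% and 14.7%. With the software's total, the WT response of miR-7a at 12 h became -2.47 and that of miR-96 -3.02, and neither was called (limma).

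**Figure D4:**
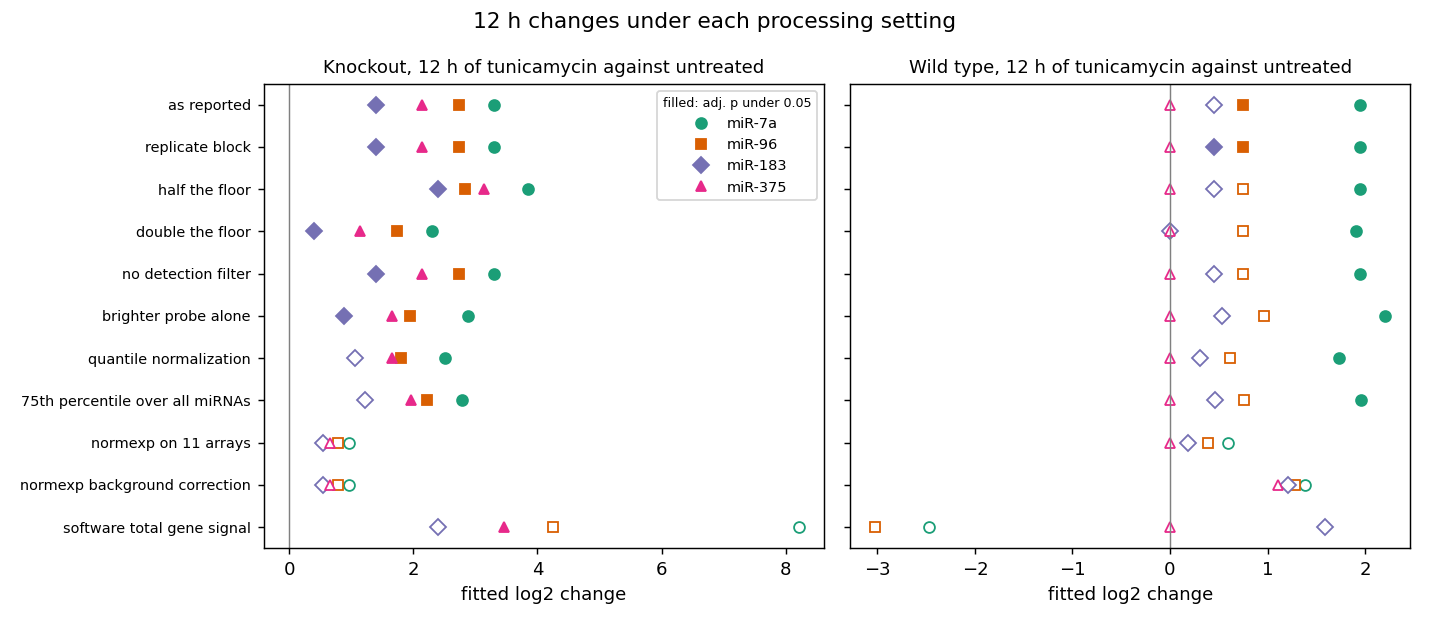
Fitted log2 change at 12 h of tunicamycin against untreated cells for the 4 tested miRNAs under each processing setting, KO on the left and WT on the right. Filled symbols have an adjusted p under 0.05; all KO changes are above 0 under every setting shown, and the WT changes of miR-7a and miR-96 turn negative with the software's total gene signal, to -2.47 and -3.02.

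The miRNAs with log2 signals closest to each member were found by the root mean square difference over the 12 arrays. Values were centred for each miRNA but not brought to equal spread. The comparison was made among 156 tested miRNAs detected on at least 6 arrays. For miR-7a they were miR-19a at 0.24, miR-20a at 0.34 and miR-106b at 0.35, against a median of 1.26 over all compared. For miR-96 they were miR-106b at 0.38, miR-7a at 0.45 and miR-19a at 0.45, against a median of 1.05. For miR-183 they were miR-130b at 0.22, miR-26b at 0.26 and miR-10a at 0.27, against a median of 0.69. The arrays share slides, runs and scaling, so these values describe likeness on these arrays. miR-96 was nearer to miR-7a, from other loci, than to miR-183 of its own cluster, which was not among its 3 nearest. The measure depends on the size of the changes, and miR-183, near the floor, changed less. Its log2 change in KO cells at 12 h was 1.40, against 2.74 for miR-96. Whether miR-96 and miR-183 run in parallel was not tested.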

How the data were processed

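The authors deposited scanner tables of spot intensity, made with Agilent Feature Extraction 10.7.1.1 (named in the submitters' processing notes), and a table of log2 values. The deposited log2 values match log2 of the total gene signal that the software wrote, to within 1.18e-06, and are empty where a miRNA was undetected. Their column medians run from 5.75 to 6.87, so they are not scaled between arrays. From the background-subtracted intensity, spots were averaged per probe without outlier spots and summed per miRNA. Sums were divided by the array's 75th percentile over 93 miRNAs, floored at 1.91% and log2 transformed. limma 3.58.1 in R 4.3.3 fitted the 6 groups together (6 residual degrees of freedom) over 176 mouse miRNAs, with Benjamini-Hochberg adjustment within each of 11 comparisons and a threshold of 0.05. The number of arrays limits the precision.

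Members, marker lists and companions were chosen with earlier results of these data known. Named miRNAs are the 6 members, their star strands, seed sharers, the miR-200 family, and for members detected on at least 6 arrays the 3 nearest tested miRNAs. Same-numbered arrays deviated together within a slide (r from 0.48 to 0.91) and not between slides (r from -0.38 to -0.05). Within a slide a replicate number goes with both scan run and experiment, which cannot be told apart. Alternatives were other summaries, floors, filters, scalings, blocks and background corrections. The files lack the mean signal, so normexp (offset 50) used the median signal.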

Additional observations from a re-analysis of the deposited data

Results flagged for a closer look

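The response to tunicamycin differed between genotypes by a test of the difference itself for 4 members at 12 h and for 3 at 24 h (limma, difference of the log2 changes, KO minus WT). At 12 h it was 2.14 for miR-375, 1.99 for miR-96, 1.36 for miR-7a and 0.95 for miR-183. At 24 h it was 2.05 for miR-375, 1.59 for miR-96 and 1.30 for miR-7a. Over all tested miRNAs, 22.2% were called in that direction at 12 h and 19.9% at 24 h. miR-375 was tested only because both KO arrays at 12 h detected it, so its calls are no support by themselves. With quantile normalization miR-375 alone kept its call. After scaling, both treated KO arrays stood above both treated WT arrays for each member and time called. How many of all tested miRNAs did so was not counted. The scaling percentile was lower on treated KO than on treated WT arrays of the same run. Before scaling, at 12 h, the means of miR-7a and of miR-183 had the opposite order. The arrays of miR-96 and of miR-183 overlapped, and miR-375 kept its order. With 2 arrays per group, no array could be tested as standing apart from its group.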

How the results depend on the processing

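Members called under each setting are given in the order KO at 12 h, KO at 24 h, WT at 12 h, WT at 24 h (each against untreated), KO minus WT response at 12 h and at 24 h, and KO against WT untreated, at 12 h and at 24 h. As reported they were 4, 4, 2, 2, 4, 3, 2, 3 and 1. The counts were 4, 4, 1, 2, 4, 4, 3, 3 and 1 with a floor lowered by 1 on the log2 scale, 4, 3, 1, 2, 2, 1, 0, 3 and 1 with a floor raised by 1, and 4, 4, 1, 1, 3, 2, 1, 1 and 1 with no detection filter. They were 4, 3, 1, 2, 1, 1, 1, 1 and 1 with the brighter probe alone (chosen after seeing the data), 3, 3, 1, 2, 1, 1, 0, 1 and 1 with quantile normalization, and 3, 3, 1, 0, 0, 0, 0, 1 and 1 with the percentile taken over all miRNAs. The software's total gene signal gave 1, 0, 0, 0, 0, 0, 0, 1 and 0, and 0 throughout was obtained with normexp on 12 or on 11 arrays (limma). Over all tested miRNAs in the same order, limma called 45, 54, 67, 76, 43, 36, 20, 67 and 61 as reported. With the floor lowered by 1 it called 45, 50, 64, 76, 41, 39, 22, 61 and 62. With the floor raised by 1 it called 46, 51, 61, 73, 40, 34, 23, 72 and 63. No detection filter gave 40, 46, 44, 54, 24, 19, 12, 48 and 51. Quantile normalization gave 24, 20, 48, 46, 11, 7, 4, 35 and 34. The brighter probe alone gave 44, 48, 74, 83, 34, 17, 21 and 65 up to KO against WT at 12 h. With the percentile over all miRNAs it called 11, 7, 3, 1, 4, 4, 0, 11 and 7. The software's total gave 14, 10, 26, 25, 8, 5, 3, 20 and 11. Normexp gave 0 throughout on 12 arrays, and 14, 14, 11 and 17 in the KO and WT responses on 11 arrays. The deposited log2 values are empty for the members in untreated KO cells, so KO responses, their difference from WT and the untreated comparison could not be tested with them. In the comparisons left (WT at 12 h and 24 h, and KO against WT at 12 h and 24 h), they called 0 members, scaled or not, and 6 of the 25 reported calls could be tested again there. Over all miRNAs tested there, limma called 0 unscaled, and 23, 22, 6 and 5 scaled. Leaving out 1 array at a time gave 4 to 4, 4 to 4, 1 to 2, 1 to 2, 3 to 4, 2 to 3, 1 to 2, 1 to 3 and 1 to 2. From 12 h to 24 h, 0 were called by limma under every setting. The 2 members called in untreated cells became 1 without any array but the 2 of WT at 12 h. In KO against WT the 3 at 12 h became 1 without WT 12 h replicate 1 or KO 12 h replicate 2, and the 1 at 24 h became 2 without WT 24 h replicate 2.

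The replicate number as a block, or the run within slide, gave 4, 4, 3, 2, 4, 4, 2, 3 and 3, and lost no call. Over all tested miRNAs the replicate block called 58, 73, 89, 96, 56, 59, 37, 78 and 83. Both blocks called more of all tested miRNAs than reported in each of these comparisons.

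With the software's total gene signal, WT changes against untreated turned to -2.47 (miR-7a) and -3.02 (miR-96) at 12 h and to -3.001, -0.97 and, for miR-183, -1.06 at 24 h. KO minus WT turned to -1.32 for miR-183 at 12 h, and to -0.052 (miR-7a) and -0.098 (miR-96) at 24 h. The deposited log2 values, empty where undetected, gave WT changes of -2.30 (miR-7a), -2.85 (miR-96) and -0.36 (miR-183) at 12 h and -3.21, -1.18 and -1.85 at 24 h, and KO minus WT of -0.39 (miR-7a) and -0.44 (miR-96) at 24 h. Scaled, they gave -2.47, -3.02 and -0.54 at 12 h, -3.001, -0.97 and -2.12 at 24 h, and KO minus WT of -0.052 and -0.098. Normexp failed on WT 12 h replicate 1, where the 25th percentile of corrected spots was 433 against 55.2 to 59.0 elsewhere. With it included, the genotype difference of the 12 h response turned to -0.41 (miR-7a), -0.45 (miR-375), -0.50 (miR-96) and -0.66 (miR-183), KO minus WT at 12 h to -0.47, -0.45, -0.55 and -0.67, and the WT change of miR-96 from 12 h to 24 h to -0.96.

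The other reversals concern differences that were not called. KO minus WT of miR-7a turned to -0.089 at 12 h and -0.11 at 24 h with the percentile over all miRNAs, to -0.052 and -0.083 with the brighter probe, and to -0.12 at 24 h with quantile normalization, which also turned the WT 24 h change of miR-183 to -0.043. From 12 h to 24 h in WT cells, miR-96 turned to -0.24 without WT 12 h replicate 1, -0.021 without WT 24 h replicate 2 (range -0.24 to 0.49 when 1 array was left out) and -0.066 with normexp on 11 arrays. There miR-183 turned to 0.098 without WT 24 h replicate 1, 0.054 without WT 12 h replicate 2 (range -0.35 to 0.098) and 0.14 with normexp on 11 arrays. In KO cells, miR-375 turned to 0.084 without KO 12 h replicate 2 and 0.16 without KO 24 h replicate 2 (range -0.34 to 0.16), and miR-375 and miR-183 to 0.052 and 0.020 with normexp on 12 or 11 arrays. Apart from the cause given for normexp on 12 arrays, the cause was not tested. Signal over background limits miR-183 and miR-375, which no more than 6 arrays detected.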
